A study of Mus musculus with 96 samples.

Results

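Brefeldin A is a small molecule that stops newly made proteins from leaving the endoplasmic reticulum (ER). The libraries described here come from mouse macrophages given brefeldin A (labelled BrefA) and then lipopolysaccharide (LPS), and from macrophages on the same plates that received no LPS (labelled NoStim). They were chosen by their labels: every BrefA well and every NoStim well on plates 1 and 2, 8 libraries in each group, which makes 16 of the 96 libraries in the series. The question is which of the changes that follow LPS are present when brefeldin A is given first.

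All cells were macrophages grown from the bone marrow of male C57BL/6 mice aged 8 weeks, in conditioned medium with MCSF, the macrophage growth factor. The series holds 12 groups of 8 libraries, with 4 wells of each group on each of 2 plates, and RNA was read at its 3′ end with a modified SCRB-Seq protocol. BrefA wells received the compound 30 min before LPS and were lysed 4 h after LPS. NoStim wells received no LPS, and their labels name no vehicle. A group labelled DMSO, given the solvent and LPS on the same schedule, stands for the LPS response without brefeldin A, and a group labelled Tunicamycin, given an inhibitor of N-linked glycosylation and LPS, is used for the genes of the ER. Doses are not given in the labels. No well in the series received BrefA without LPS, so within BrefA against NoStim an effect of LPS and an effect of the compound itself cannot be told apart. Many results are set beside the DMSO group for that reason. The labels do not say that the wells are separate cultures or animals, so p-values measure the spread between these wells, which may be technical.

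LPS binds Toll-like receptor 4. From the cell surface the receptor signals through MyD88 to NF-kB, which switches on cytokine and chemokine genes, and from endosomes it signals through TRIF to IRF3, which switches on interferon beta. Interferon beta is secreted, binds the receptor IFNAR on the same and neighbouring cells, and activates a complex with STAT2 and IRF9, which switches on a large set of antiviral genes. Brefeldin A inhibits the exchange factors that activate the small GTPase ARF1. The COPI coat then falls off Golgi membranes, the Golgi merges with the ER and secretion stops. Proteins held back in the ER activate the unfolded protein response, in which ATF6 and XBP1 raise ER chaperone genes and PERK, through eIF2alpha, raises translation of ATF4.

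Depth was low and alike in both groups: total counts ran from 178983 to 290435 in the BrefA libraries and from 194000 to 368001 in the NoStim libraries. The ribosomal RNA gene Rn45s took 20.3% ± 4.50 of the counts in BrefA and 16.9% ± 7.41 in NoStim (SD, n = 8 each; exact permutation test, two-sided, p = 0.28, adjusted p = 0.789 over 6 such tests). Fewer genes had a count in the BrefA libraries than in NoStim, 9452 ± 338 against 10085 ± 235 (SD, n = 8 each, exact permutation test, two-sided, p = 0.000311, adjusted p = 0.00187). BrefA and DMSO libraries were not told apart, 9452 ± 338 against 9353 ± 277 (SD, n = 8 each, exact permutation test, two-sided, p = 0.526, adjusted p = 0.789). Of 21 macrophage identity genes, 20 were in the table and had counts, and their summed level was 11180 to 13294 CPM (counts per 1000000 counts of a library) in NoStim and 8716 to 11953 CPM in BrefA. Of 19 tested, 2 were higher and 9 lower in BrefA than in NoStim, with a median of -0.35, 2 were higher and 6 lower in DMSO, and 5 were lower in BrefA than in DMSO; their part in the results was not tested. Across the NoStim and BrefA libraries, summed markers of T and NK cells were at most 9.88 CPM, of B and plasma cells 3.52 CPM and of mast cells and basophils 3.02 CPM. Neutrophil markers summed to 21.1 to 71.6 CPM, with Elane, Mpo, Camp, Ltf and Retnlg at 0, and dendritic cell markers to 3.58 to 22.8 CPM in NoStim and 14.2 to 58.7 CPM in BrefA, with Flt3, Clec9a, Cd209a and Bcl11a at 0. Fibroblast and endothelial markers reached at most 27.9 CPM, and markers of red cells and platelets, of which Pf4 was the highest, 177 CPM. In bulk wells, fewer cells of a type and less RNA per cell cannot be told apart. Library 2 H of the BrefA group (plate 2, well H) was closer to the mean profile of the plate 1 Tunicamycin libraries (r = 0.414) than to that of the plate 1 BrefA libraries (r = 0.366, over 3811 genes), and library 2 D of the NoStim group had the highest Rn45s share, 29.5%, and the highest level of many LPS-inducible genes. Results that move without either are given as such. Where a result is given without wells of one letter, the libraries of that letter on both plates, 2 in all, were left out.

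The test across genes was edgeR's quasi-likelihood F test in one model of all 96 libraries with group and plate as terms, and a gene passed at a Benjamini-Hochberg adjusted p under 0.05. Differences are on the log2 scale and carry the standard error (SE) of the fit. Of 4963 genes tested, 981 (19.8%) were higher in BrefA than in NoStim and 870 (17.5%) were lower. At least 2-fold differences were found for 476 of the higher and 321 of the lower genes, and 1842 of the 1851 had the same sign on both plates. Scaling of the libraries moved the balance of this count: with RLE scaling 831 genes were higher and 1179 lower, and the median difference over all genes went from -0.0098 to -0.13. In DMSO against NoStim, which shares the NoStim libraries, 968 genes (19.5%) were higher and 822 (16.6%) lower, with a median over all genes of -0.036; with RLE scaling 778 were higher and 1248 lower, and the median was -0.19. BrefA against DMSO, in which NoStim does not enter, tests how the response differs with the compound: 401 genes (8.08%) were higher in BrefA and 459 (9.25%) lower, with a median over all genes of 0.0080. With RLE scaling 432 were higher and 398 lower.

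The 12 genes with the highest differences in BrefA against NoStim, by the naming rule, were Cxcl2, Il12b, Cxcl1, Cxcl3, Gdf15, Ccl5, Ccl2, Tnfsf15, Tnfsf9, Ccl7, Ccl3 and Il23a, from 5.66 for Cxcl2 down to 4.01 for Il23a. Of the 12 lowest, those reported here were Vgll4, Sesn1, Lpar6, Sox4, Cx3cr1, Fos, Cxcr4, Gpr65, Tnfaip8l2, Tmem37 and Susd3, from -4.31 for Vgll4 to -3.07 for Susd3.

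**Figure D1:**
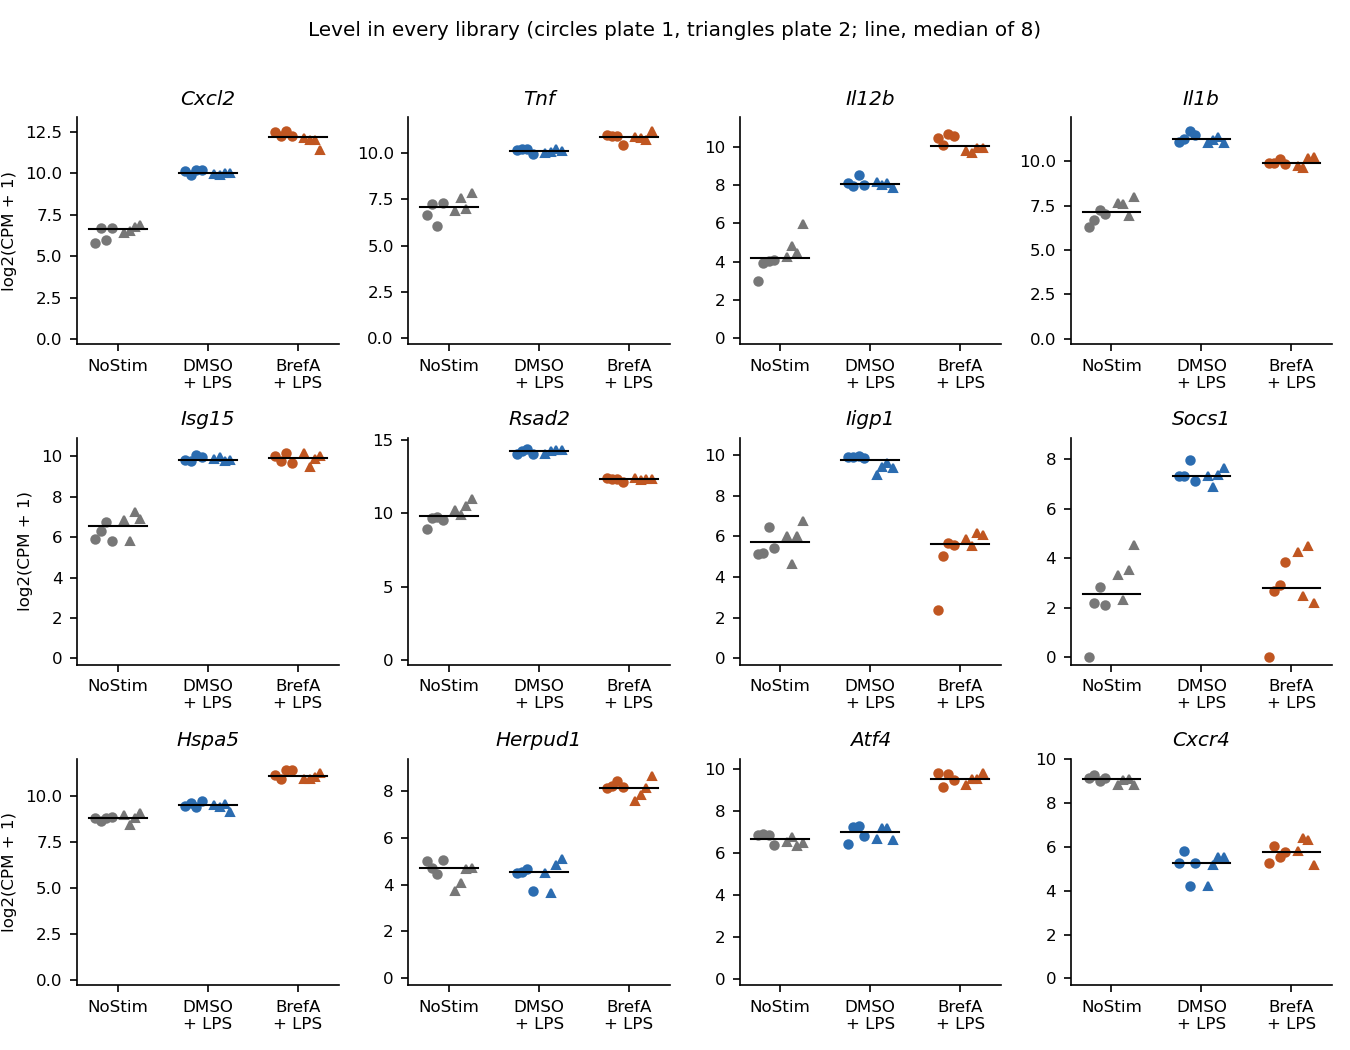
Level of 12 genes in every library, as log2(CPM + 1), for NoStim, DMSO with LPS and BrefA with LPS (8 libraries each; circles plate 1, triangles plate 2, line the median). Cxcl2, Tnf and Il12b are highest in BrefA, Isg15 is alike in both LPS groups, Iigp1 and Socs1 overlap NoStim in BrefA, and Hspa5, Herpud1 and Atf4 are high in BrefA.

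To count how much of the LPS response was present in BrefA wells with different NoStim wells in each step, LPS-responsive genes were chosen with DMSO against NoStim wells A and B, and BrefA was then measured against NoStim wells C and D. In that half-sized comparison 722 of all tested genes (14.5%) were higher in BrefA and 588 (11.8%) lower. Of 597 genes raised at least 2-fold in DMSO, 322 (53.9%) were higher in BrefA and 6 were lower, with a median difference of 0.867. Of the 597 genes, 270 were at least 2-fold higher in BrefA and 80 had a difference below 0. Of 328 genes lowered at least 2-fold in DMSO, 205 (62.5%) were lower in BrefA and 3 were higher, with a median of -0.997. Among the other 4038 genes, 9.83% were higher and 9.34% lower. With the NoStim wells exchanged, 327 of 517 raised genes (63.2%) were higher, with a median of 1.28, and 190 of 262 lowered genes (72.5%) were lower, with a median of -1.22. NoStim library 2 D was a measuring well at first and a choosing well after the exchange. The division was not repeated without it. DMSO was not measured against the same NoStim wells, so these shares cannot be set beside a DMSO share. A gene with no call in this divided comparison is not shown to lack a response.

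Genes for secreted cytokines rose in BrefA wells. Of 25 listed, 16 had enough counts to be tested, and 15 of these were higher than in NoStim, with a median of 3.55; in DMSO 14 were higher, with a median of 2.82. Against DMSO the list divided, with 7 members higher in BrefA and 5 lower. Tnf (chr17:35199381-35202007, mm10) encodes tumour necrosis factor, the leading early inflammatory cytokine. Its lowest, median and highest levels were 66.8, 139 and 232 CPM in NoStim, 1006, 1120.0 and 1204 CPM in DMSO and 1405, 1881 and 2304 CPM in BrefA. The groups did not overlap, and Tnf was higher in BrefA by 3.71 ± 0.15 (SE, adjusted p = 3.68e-48) against NoStim and by 0.74 ± 0.12 (SE, adjusted p = 6.50e-07) against DMSO.

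Il12b and Il23a encode the subunits p40 and p19, which together make interleukin 23. Il12b (chr11:44400063-44414033, mm10) had a lowest, median and highest level of 6.93, 17.2 and 61.4 CPM in NoStim, 235, 263 and 365 CPM in DMSO and 817, 1048 and 1613 CPM in BrefA, again with no overlap. The difference was 5.60 ± 0.20 (SE, adjusted p = 1.31e-54) against NoStim and 2.07 ± 0.15 (SE, adjusted p = 5.84e-25) against DMSO. For Il23a the levels were 0, 3.30 and 7.05 CPM in NoStim, 3.51, 7.73 and 12.4 CPM in DMSO and 35.5, 63.1 and 92.4 CPM in BrefA. DMSO and NoStim wells overlapped for Il23a and did not pass the test (1.02 ± 0.60 (SE, adjusted p = 0.180)), whereas every BrefA well lay above all of them (2.99 ± 0.37 (SE, adjusted p = 1.20e-11) against DMSO).

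Gdf15 (chr8:70629393-70632456), a stress-induced member of the TGF-beta family, had the same pattern. Its levels were 0, 5.0 and 7.16 CPM in NoStim, 3.10, 9.02 and 12.6 CPM in DMSO and 106, 146 and 222 CPM in BrefA. LPS with DMSO gave a difference of 0.79 ± 0.56 that did not pass (adjusted p = 0.279), and BrefA exceeded DMSO by 4.20 ± 0.31 (SE, adjusted p = 2.17e-24), the highest value among the named genes of that comparison. Tnfsf15, the TNF-family cytokine TL1A, was higher than in DMSO by 1.03 ± 0.18, and Tnfsf9, the ligand of the costimulatory receptor 4-1BB, was 4.34 above NoStim with no call against DMSO (0.36 ± 0.15, adjusted p = 0.0952). Tnfsf9 was called against DMSO at 0.464 without BrefA wells E, 0.478 without BrefA wells H and 0.559 without DMSO wells G.

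The members lower than in DMSO were Il1b, Il1a, Il6, Il15 and Il1rn, a count of 3 without DMSO wells H. Il1b (chr2:129364570-129371139) encodes interleukin 1 beta, which is made in the cytosol and leaves the cell without passing through the ER and Golgi. It had a lowest, median and highest level of 76.3, 138 and 248 CPM in NoStim, 2060.2, 2414 and 3297 CPM in DMSO and 780.3, 967 and 1205 CPM in BrefA. All BrefA wells were above all NoStim wells and below all DMSO wells (2.70 ± 0.15 (SE, adjusted p = 3.29e-31) against NoStim, -1.31 ± 0.13 (SE, adjusted p = 8.63e-15) against DMSO). Il1a, the other cytosolic interleukin 1, had 0.56 ± 0.32 against NoStim, the only tested cytokine with no call there, and -0.76 ± 0.28 (SE, adjusted p = 0.0489) against DMSO. Without NoStim library 2 D it was called against NoStim, at 0.897, and its call against DMSO was lost, at -0.606 to -0.841, without BrefA wells E, F or G, without any one of DMSO wells E to H, or without Tunicamycin library 2 F. Il6, which encodes the fever-inducing cytokine interleukin 6, rose by 2.13 ± 0.32 against NoStim and was -0.74 ± 0.23 against DMSO, a call lost without BrefA wells H (-0.566) or DMSO wells H (-0.634).

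Chemokine genes rose in BrefA wells, some to above and some to below their level in DMSO. Of 16 tested of 18 listed, 14 were higher in BrefA than in NoStim, with a median of 3.13, and Ccl6 was lower (-0.59, with no call at -0.518 without BrefA wells F and -0.507 without BrefA wells G); in DMSO 15 were higher, with a median of 3.0. Against DMSO, 5 were higher: Cxcl1, Cxcl2, Cxcl3, Ccl2 and Ccl7. Cxcl1, Cxcl2 and Cxcl3 are neutrophil attractants encoded close together on chromosome 5. Cxcl2 (chr5:90903871-90905938) had a lowest, median and highest level of 55.5, 97.4 and 114 CPM in NoStim, 967, 1046 and 1197 CPM in DMSO and 2692, 4628 and 5912 CPM in BrefA, without overlap. Its difference was 5.66 ± 0.24 (SE, adjusted p = 1.95e-36) against NoStim and 2.10 ± 0.19 (SE, adjusted p = 7.88e-16) against DMSO. Cxcl1 went from 3.96, 14.3 and 28.6 CPM in NoStim to 38.6, 129 and 208 CPM in DMSO and 285, 525 and 1017 CPM in BrefA. All 3 neutrophil attractants exceeded DMSO by more than 4-fold, Cxcl1 by 2.31 ± 0.18 and Cxcl3 by 2.15 ± 0.20 on the log2 scale.

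Ccl2, the main monocyte attractant, was 4.92 above NoStim and 0.90 ± 0.16 above DMSO, and its wells overlapped with those of DMSO. Ccl3, Ccl4 and Ccl5 draw monocytes and T cells. Their levels in BrefA lay within or across the DMSO range. Ccl5 had a lowest, median and highest level of 67.3, 83.2 and 153 CPM in NoStim, 2425, 2642 and 3913 CPM in DMSO and 2476, 2767 and 3762 CPM in BrefA, and the difference from DMSO was 0.094 ± 0.17 (SE, adjusted p = 0.801). For Ccl3 that difference was 0.16 ± 0.15 and for Ccl4 -0.12 ± 0.12, both without a call. The 4 members lower than in DMSO were Cxcl9 (-1.72), Cxcl10 (-1.70), Cxcl11 (-2.57) and Ccl12 (-2.14). Cxcl9 and Cxcl10 encode interferon-inducible ligands of CXCR3, and Cxcl11 is annotated as a polymorphic pseudogene in the GENCODE release used. Cxcl9, Cxcl10 and Ccl12 were still above NoStim in BrefA, by 1.15, 1.28 and 1.47, and Cxcl11 had no call there (0.25).

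Most NF-kB subunits and inhibitors, several of which are themselves NF-kB targets, rose in BrefA wells. Of 20 tested, 16 were higher than in NoStim in BrefA, with a median of 1.58, and 16 in DMSO, with a median of 1.52. The direct comparison called Nfkbid higher in BrefA (1.30) and Bcl3 (-0.76) and Tnip3 (-1.40) lower. The Bcl3 call was lost without BrefA wells E, at -0.658, and 2 members were higher without DMSO wells F. Nfkbia (chr12:55489410-55492647) encodes IkappaB alpha, the inhibitor that NF-kB resynthesises to end its own activity. Its lowest, median and highest levels were 553, 698 and 783 CPM in NoStim, 5261, 5782 and 5999 CPM in DMSO and 5206, 6227 and 7793 CPM in BrefA. The LPS groups overlapped and lay far above NoStim (3.23 ± 0.11 (SE, adjusted p = 1.93e-58) against NoStim, 0.16 ± 0.099 (SE, adjusted p = 0.323) against DMSO). Tnfaip3, the deubiquitinating enzyme A20, rose by 1.65 ± 0.22 and Nfkb1, the p105 and p50 subunit, by 1.30 ± 0.17 against NoStim, and neither had a call against DMSO (-0.042 and -0.052).

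Inducible effector genes rose as well. Of 19 tested, 18 were higher in BrefA than in NoStim, with a median of 1.68, and 17 were higher in DMSO, with a median of 2.35. Irg1, the enzyme that makes itaconate, had a lowest, median and highest level of 69.8, 133 and 237 CPM in NoStim, 1049, 1183 and 1271 CPM in DMSO and 952, 1072 and 1198 CPM in BrefA (3.0 ± 0.13 (SE, adjusted p = 2.64e-45) against NoStim, -0.11 ± 0.12 (SE, adjusted p = 0.635) against DMSO). Tnfaip2 and the costimulatory receptor Cd40 rose by 3.93 ± 0.16 and 3.86 ± 0.19, with -0.27 and -0.090 against DMSO and no call there. Clec4e, the receptor Mincle for mycobacterial glycolipid, was higher than in DMSO (0.95 ± 0.12 (SE, adjusted p = 1.82e-10)), as was the protease gene Plau (1.39). Ptgs2, the inducible cyclooxygenase, rose by 1.25 ± 0.24 against NoStim, and the ranges of its NoStim and BrefA wells overlapped. Saa3, Gpr84, Mmp13 and Mmp14 were lower than in DMSO, at -1.79, -1.18, -1.02 and -0.55. The Mmp14 call was lost, at -0.389 to -0.583, without wells F, G or H of either LPS group or without Tunicamycin library 2 F.

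Most genes that respond to interferon were lower in BrefA than in DMSO. Of 49 antiviral effector genes tested of 50 listed, 47 were higher than in NoStim in DMSO, with a median of 1.67, and 14 in BrefA, with a median of 0.28. In BrefA 2 were lower than in NoStim, Ifitm3 (-0.58) and Ifi27l2a (-0.96). Against DMSO, 41 of the 49 were lower in BrefA, with a median of -1.39. None was higher: edgeR counted 0 at an unadjusted p under 0.05 too, and DESeq2 0. Of 14 interferon-inducible GTPases, 14 were higher in DMSO and 5 in BrefA: Gbp2, Gbp3, Gbp5, Gbp6 and Gbp7. Their medians were 2.40 and 0.50, and 13 were lower in BrefA than in DMSO. Of 20 interferon signalling and sensor genes, 18 were higher in DMSO and 6 in BrefA, and 16 were lower in BrefA than in DMSO, with a median of -1.20. The number of antiviral genes above NoStim in BrefA was 13 with RLE scaling and 12 to 18 with the wells of one letter left out, and the number below NoStim was 4 with RLE scaling.

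The promoters of the antiviral genes Ifit1, Rsad2 and Isg15 are shown, the first listed tested members that hold the motif searched. The motif searched was GAAANNGAAA on both strands, the core of the interferon-stimulated response element that the complex with STAT2 and IRF9 binds and that IRF family factors also read. In RefSeq windows of 300 bases (250 before and 50 after the start site), 18 of the 40 listed antiviral genes in the table (45%) held it, against 3.99% of 27025 genes. The windows below are from build mm10 (GRCm38.p6), read 5′ to 3′ on the gene's strand, with the motif in capitals: Ifit1 at chr19:34640639-34640938 on the plus strand with 2 matches, Rsad2 at chr12:26456403-26456702 on the minus strand with 1, and Isg15 at chr4:156200769-156201068 on the minus strand with 3 overlapping matches.
Ifit1: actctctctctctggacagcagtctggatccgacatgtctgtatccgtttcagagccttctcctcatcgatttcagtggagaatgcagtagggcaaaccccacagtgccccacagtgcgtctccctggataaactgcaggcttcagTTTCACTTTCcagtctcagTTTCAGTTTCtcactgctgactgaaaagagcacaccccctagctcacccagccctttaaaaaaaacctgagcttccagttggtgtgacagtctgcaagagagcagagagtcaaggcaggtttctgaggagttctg
Rsad2: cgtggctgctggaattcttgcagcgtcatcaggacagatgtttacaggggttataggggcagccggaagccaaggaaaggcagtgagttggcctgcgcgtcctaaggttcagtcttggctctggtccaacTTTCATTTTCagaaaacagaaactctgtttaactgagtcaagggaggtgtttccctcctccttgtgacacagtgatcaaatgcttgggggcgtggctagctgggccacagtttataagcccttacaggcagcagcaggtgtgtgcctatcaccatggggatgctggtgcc
Isg15: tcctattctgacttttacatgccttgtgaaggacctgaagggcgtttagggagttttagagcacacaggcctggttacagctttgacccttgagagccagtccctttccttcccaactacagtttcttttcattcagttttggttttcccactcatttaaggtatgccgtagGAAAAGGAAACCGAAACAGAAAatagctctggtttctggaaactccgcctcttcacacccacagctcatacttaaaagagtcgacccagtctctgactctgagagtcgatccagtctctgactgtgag
The 18 tested antiviral genes with the motif had a median of -1.41 against DMSO and 15 were lower, and the 22 without it had a median of -1.12 and 18 were lower.

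Isg15, a ubiquitin-like protein joined to other proteins during antiviral defence, was at overlapping levels in both LPS groups. Its lowest, median and highest levels were 55.4, 92.5 and 152 CPM in NoStim, 880.3, 910.1 and 1052 CPM in DMSO and 711, 967 and 1162 CPM in BrefA. The difference was 3.36 ± 0.19 (SE, adjusted p = 2.85e-29) against NoStim and 0.029 ± 0.16 (SE, adjusted p = 0.941) against DMSO. Oasl1, a relative of the RNA-sensing oligoadenylate synthetases, was similar, at 3.27 ± 0.23 against NoStim and -0.21 ± 0.18 against DMSO. Irf1, a transcription factor that NF-kB induces, rose by 3.10 ± 0.19, and Ifih1, the RNA sensor MDA5, by 1.98 ± 0.16, and neither had a call against DMSO (-0.21 and -0.29). A difference from DMSO that misses the threshold does not show that these 4 genes reached equal levels.

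Rsad2, which encodes the antiviral enzyme viperin, rose in part. It had a lowest, median and highest level of 485, 919 and 1976 CPM in NoStim, 16743, 19392 and 21034 CPM in DMSO and 4493, 5169 and 5389 CPM in BrefA. All 8 BrefA wells lay between the other groups, at 2.28 ± 0.19 (SE, adjusted p = 2.55e-18) against NoStim and -1.89 ± 0.18 (SE, adjusted p = 1.15e-14) against DMSO. Ifit1, which binds viral RNA caps, went from 207, 260.3 and 491 CPM in NoStim to 2135, 2365 and 2751 CPM in DMSO and 785, 876 and 1025 CPM in BrefA, again without overlap (-1.43 ± 0.15 (SE, adjusted p = 8.39e-14) against DMSO). Gbp7, a guanylate-binding protein, and Ifi205 and Mnda, DNA-sensor family members, also lay between, at 1.94, 2.32 and 2.06 against NoStim and -1.53, -1.20 and -1.18 against DMSO. Cmpk2, the neighbour of Rsad2 and a mitochondrial nucleotide kinase, was 1.26 ± 0.22 against NoStim and -2.41 ± 0.20 against DMSO.

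Another set had no call against NoStim in BrefA wells. Iigp1, an immunity-related GTPase that attacks parasite vacuoles, had a lowest, median and highest level of 23.8, 52.9 and 109 CPM in NoStim, 520.5, 856 and 999 CPM in DMSO and 4.22, 47.8 and 71.1 CPM in BrefA. It had no call against NoStim (-0.30 ± 0.31 (SE, adjusted p = 0.486)) and was lower than DMSO in every well (-4.04 ± 0.25 (SE, adjusted p = 1.25e-24)). Mx1, a gene of the dynamin-like GTPase family, had 35.9, 75.7 and 218 CPM in NoStim, 408, 523 and 670.1 CPM in DMSO and 67.6, 86.9 and 119 CPM in BrefA (-0.044 ± 0.23 (SE, adjusted p = 0.904) against NoStim, -2.50 ± 0.20 (SE, adjusted p = 3.89e-19) against DMSO). Irgm1 and Igtp, further immunity-related GTPases, were at -0.14 and 0.43 against NoStim and at -1.97 and -2.05 against DMSO. Tgtp1 and Tgtp2 are near-identical copies whose counts may be divided between them, and neither had a call against NoStim (-0.14 and 0.017), while both were more than 8-fold below DMSO (-3.20 and -3.19).

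Irf7 and Irf9, transcription factors of the interferon response, had differences of -0.40 ± 0.22 and -0.39 ± 0.23 against NoStim, neither past the threshold, and of -1.64 and -0.89 against DMSO, both past it. Stat2 was at 0.47 ± 0.21 (SE, adjusted p = 0.0706) against NoStim, a value called at 0.569 without BrefA wells H and at 0.549 without NoStim library 2 D. Irf8, a myeloid transcription factor, was the one signalling gene lower than in NoStim (-1.58). Of other genes with the lowest values against DMSO, the iron oxidase Cp (-3.14) and the transcription factor Batf2 (-2.94) were at 0.25 and -0.040 against NoStim, both without a call.

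**Figure D2:**
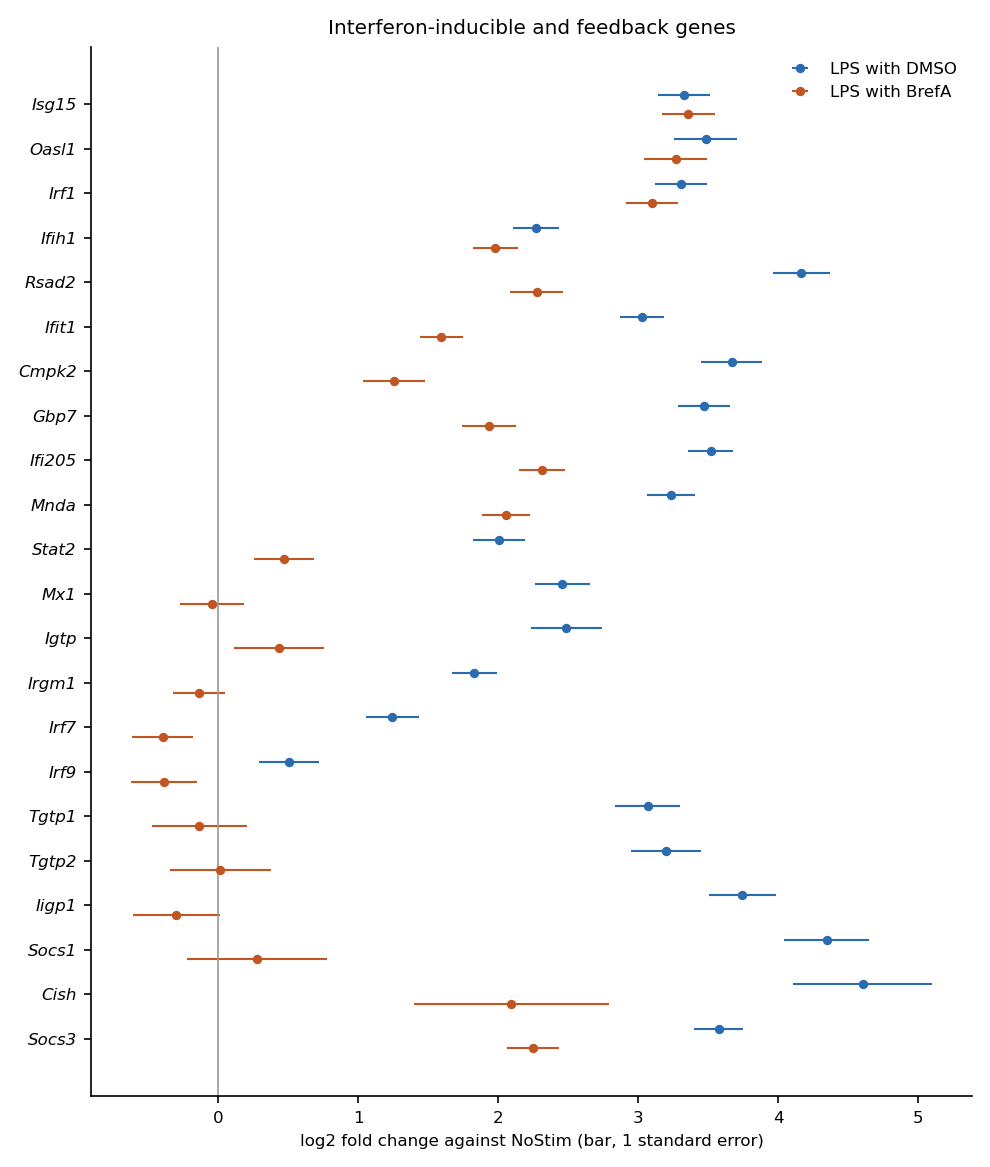
Log2 fold change against NoStim for interferon-inducible and feedback genes, LPS with DMSO in blue and LPS with BrefA in orange, bars 1 standard error of the edgeR fit (8 libraries a group). Isg15, Oasl1, Irf1 and Ifih1 have overlapping bars or lie close together, Rsad2 and Ifit1 lie lower with BrefA, and Mx1, Tgtp1, Iigp1 and Socs1 lie near 0 with BrefA.

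Feedback inhibitors of signalling showed both patterns. Of 16 tested, 8 were higher in BrefA than in NoStim and 12 in DMSO, with medians of 0.71 and 1.63. Zfp36l1 (-2.81), Zfp36l2 (-2.67) and Spry2 (-1.58) were lower than NoStim in BrefA, and stood at -2.79, -3.46 and -1.83 in DMSO. Against DMSO, 8 were lower and Pim1 (0.55) and Rgs1 (1.68) higher. Socs1, Socs3 and Cish encode inhibitors of cytokine receptor signalling through JAK and STAT proteins. Socs1 (chr16:10782240-10785536) had a lowest, median and highest level of 0, 5.01 and 22.3 CPM in NoStim, 116, 160.1 and 248 CPM in DMSO and 0, 5.96 and 21.3 CPM in BrefA. Every BrefA well lay below every DMSO well and among the NoStim wells (0.28 ± 0.50 (SE, adjusted p = 0.703) against NoStim, -4.07 ± 0.30 (SE, adjusted p = 1.18e-23) against DMSO). Socs3 rose in part, from 24.3, 43 and 75.4 CPM in NoStim to 161, 196 and 356 CPM in BrefA, with 389, 525 and 650.3 CPM in DMSO (-1.33 ± 0.15 (SE, adjusted p = 9.28e-14) against DMSO). Cish, with a median of 0 CPM in NoStim, was -2.51 ± 0.39 against DMSO, and its call against NoStim was lost without NoStim wells C, at 1.75. Dusp1, a phosphatase of MAP kinases, rose by 1.29 ± 0.18 against NoStim, with no call against DMSO (0.054).

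Receptor genes were lower more often than higher. Of 17 cytokine receptor genes tested, 2 were higher in BrefA than in NoStim, Tnfrsf1b (0.98) and Il15ra (2.76), and 7 were lower, with a median of -0.37. In DMSO 3 were higher, Tnfrsf1b, Il4ra and Il15ra, and 5 lower. Against DMSO 7 were lower. Il6ra, the interleukin 6 receptor, had a lowest, median and highest level of 60.4, 88.2 and 117 CPM in NoStim, 17.7, 29.5 and 53.3 CPM in DMSO and 6.58, 13.7 and 32 CPM in BrefA (-2.51 ± 0.27 (SE, adjusted p = 5.77e-15) against NoStim), and its call against DMSO (-1.05 ± 0.32) was lost without BrefA wells E (-0.86) or G (-0.92) or DMSO wells E (-0.859). Csf2rb, the shared signalling chain of the GM-CSF receptor, was at -1.04 ± 0.14 against NoStim and -0.53 ± 0.15 against DMSO, a call lost without DMSO wells F, at -0.418. Il10ra, the interleukin 10 receptor, was -1.14 ± 0.25 against NoStim and -1.09 ± 0.25 against DMSO. Ifnar1, a chain of the interferon receptor, was -0.39 ± 0.12 against NoStim, a call lost without BrefA wells H, at -0.292, and -0.54 ± 0.12 (SE, adjusted p = 2.75e-04) against DMSO. Its partner Ifnar2 had no call in either (0.032 ± 0.17 and -0.25 ± 0.17).

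The machinery that senses LPS moved in both directions. Of 13 genes tested, 5 were higher in BrefA than in NoStim, namely Cd14 (1.25), Tlr1 (1.49), Tlr2 (1.96), Tirap (0.59) and Irak2 (0.56). Tlr13 (-0.93), Irak1 (-0.45) and Irak4 (-0.99) were lower. In DMSO 8 of the 13 were higher than in NoStim and 3 lower. Against DMSO the adaptor Myd88 (-1.16) and the kinases Map3k8 (-2.26) and Tbk1 (-0.74) were lower. Tbk1 lost its call without wells F of BrefA (-0.624) or of DMSO (-0.673), Tirap without BrefA wells E (0.468) or NoStim wells A (0.423), and Tlr13 without BrefA wells E (-0.667) or G (-0.689).

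ER chaperone genes rose in BrefA wells. Of 17 tested of 24 listed, 9 were higher in BrefA than in NoStim, with a median of 0.76. In DMSO Hspa5 (0.68) and Ero1l (0.72) were higher, with a median over the list of -0.052. With RLE scaling 1 was higher and 2 lower in DMSO. The Ero1l call was lost, at 0.479 to 0.682, without NoStim wells A or B or DMSO wells E, F or H. Against DMSO 9 were higher in BrefA, with a median of 0.78. None was lower in either comparison of BrefA (0 by edgeR at an unadjusted p under 0.05 and 0 by DESeq2).

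The promoters of Hspa5, Hsp90b1 and Dnajc3, the first listed chaperone genes that hold it, are shown for the ER stress response element, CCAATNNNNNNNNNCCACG, through which ATF6 acts. In the RefSeq windows of 300 bases, searched on both strands, 7 of the 17 listed chaperone genes in the table (41.2%) held it, and 37 of 27025 genes in all (0.137%). Hspa5 is at chr2:34771840-34772139 on the plus strand, Hsp90b1 at chr10:86705395-86705694 on the minus strand with 2 matches, and Dnajc3 at chr14:118937682-118937981 on the plus strand (mm10, GRCm38.p6). The capitals mark the element, which begins 65 bases before the start site in Hspa5, and 105 bases before it in Dnajc3.
Hspa5: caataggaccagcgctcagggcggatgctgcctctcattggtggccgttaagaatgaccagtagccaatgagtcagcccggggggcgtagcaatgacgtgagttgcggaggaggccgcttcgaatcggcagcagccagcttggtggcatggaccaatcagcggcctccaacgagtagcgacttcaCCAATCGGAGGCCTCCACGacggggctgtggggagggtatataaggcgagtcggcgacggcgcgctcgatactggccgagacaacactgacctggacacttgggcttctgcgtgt
Hsp90b1: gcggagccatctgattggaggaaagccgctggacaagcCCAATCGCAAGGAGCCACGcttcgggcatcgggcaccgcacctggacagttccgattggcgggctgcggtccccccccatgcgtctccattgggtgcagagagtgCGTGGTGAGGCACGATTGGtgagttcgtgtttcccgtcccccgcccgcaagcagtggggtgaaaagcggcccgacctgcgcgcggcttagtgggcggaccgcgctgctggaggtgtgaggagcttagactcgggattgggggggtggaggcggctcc
Dnajc3: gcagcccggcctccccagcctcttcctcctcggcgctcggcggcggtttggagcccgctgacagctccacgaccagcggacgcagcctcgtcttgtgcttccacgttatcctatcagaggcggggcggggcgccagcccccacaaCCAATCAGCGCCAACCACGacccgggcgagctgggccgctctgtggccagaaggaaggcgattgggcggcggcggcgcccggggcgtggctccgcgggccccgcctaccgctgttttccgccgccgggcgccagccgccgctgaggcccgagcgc
Of 6 tested chaperone genes with the element, 4 were higher in BrefA than in DMSO, with a median of 1.13, and of 7 without it 3 were, with a median of 0.53.

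Hspa5 encodes BiP, the main chaperone of the ER. It had a lowest, median and highest level of 344, 453 and 553 CPM in NoStim, 574, 729.8 and 842 CPM in DMSO and 1943, 2239 and 2732 CPM in BrefA. The 3 groups did not overlap, and BrefA was higher by 2.33 ± 0.11 (SE, adjusted p = 1.18e-43) against NoStim and by 1.66 ± 0.11 (SE, adjusted p = 1.13e-29) against DMSO. Dnajc3, a co-chaperone of BiP, had 69.3, 92.2 and 119.9 CPM in NoStim, 74.1, 105 and 126 CPM in DMSO and 151, 259 and 342 CPM in BrefA, and Dnajb9, another, had 8.37, 21.2 and 27.7 CPM, 13, 17.3 and 24.8 CPM and 47, 76.8 and 116 CPM. For both, NoStim and DMSO overlapped and BrefA lay above them (1.39 and 2.16 against DMSO). Hsp90b1, the ER member of the HSP90 family, rose by 0.76 ± 0.17 (SE, adjusted p = 1.24e-04) against NoStim with overlapping wells. Hyou1, Manf and Xbp1 rose by 1.26 ± 0.16, 1.61 ± 0.27 and 0.98 ± 0.22.

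Some of the genes that move proteins into the ER or out of it for degradation were higher with BrefA. Of 33 tested, 14 were higher in BrefA than in NoStim, with a median of 0.31, and 15 were higher than in DMSO, with a median of 0.54. With RLE scaling the first count was 10, with 1 lower, and the second 15. The ER stress response element was searched in this list as well. It was in 2 of the 30 listed genes in the promoter table (6.67%) and in 0 of the 25 that were tested. Of those 25 genes without it, Herpud1 among them, 10 were higher in BrefA than in DMSO, with a median of 0.51. Herpud1 (chr8:94386438-94395377) encodes an ER membrane protein of the degradation pathway. It had a lowest, median and highest level of 12.1, 24.9 and 32.6 CPM in NoStim, 11.6, 22 and 33.5 CPM in DMSO and 192, 284 and 402 CPM in BrefA (3.62 ± 0.24 (SE, adjusted p = 1.55e-28) against NoStim, 3.72 ± 0.25 (SE, adjusted p = 3.86e-27) against DMSO). Derl1 and Sel1l, parts of the same pathway, rose by 1.02 ± 0.22 and 0.80 ± 0.14 against NoStim. Sec61b, of the channel through which proteins enter the ER, had no call against NoStim (0.30 ± 0.17) and was higher than in DMSO (0.67 ± 0.18 (SE, adjusted p = 0.00315)).

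Targets of ATF4 and CHOP rose in BrefA wells. Of 16 tested, 12 were higher than in NoStim, with a median of 1.52, and Atf3 (-0.44) and Crebrf (-0.92) were lower. In DMSO 3 were higher, Atf3, Nupr1 and Slc7a11, and 3 lower, Ddit3, Cebpg and Crebrf. The Atf3 call in BrefA was lost, at -0.34 to -0.416, without BrefA wells E or G or NoStim wells A or C, and the Ddit3 call in DMSO, at -0.812 to -0.877, without NoStim wells B or DMSO wells F or H. Atf4 (chr15:80255184-80257541) had a lowest, median and highest level of 77.6, 98.8 and 118 CPM in NoStim, 85.2, 126 and 156 CPM in DMSO and 560.4, 719 and 895 CPM in BrefA (2.92 ± 0.16 (SE, adjusted p = 1.68e-37) against NoStim). Ddit3 encodes CHOP, the factor linked to cell death under lasting ER stress. Ddit3 was lower in DMSO than in NoStim (-1.0) and higher in BrefA, with 11.2, 25.3 and 46.5 CPM, 5.33, 9.75 and 35.4 CPM and 99.5, 119 and 144 CPM in the order NoStim, DMSO and BrefA. The amino acid transporter Slc38a2 showed the same order, with -1.25 in DMSO and 1.79 in BrefA against NoStim and a difference between them of 3.04 ± 0.21 (SE, adjusted p = 2.45e-27). Asns, asparagine synthetase, and Mthfd2, a mitochondrial folate enzyme, were higher than in DMSO by 2.39 ± 0.37 and 1.77 ± 0.25. Nupr1 rose in both LPS groups, by 2.56 in BrefA and 2.15 in DMSO, with no call between them. The motif TGATGNAA, searched on both strands as a core of the ATF4 element, was in 7 of 23 listed members of the promoter table (30.4%) and in 4.51% of all genes. Of the 4 tested genes that held it, 3 were higher than in NoStim, and against DMSO 1 was higher and 1 lower; of 11 that did not, 9 and 8 were higher and none was lower than in DMSO. The medians were 2.24 with it and 1.48 without it against NoStim, and 0.54 and 1.39 against DMSO.

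Genes for tRNA synthetases, which charge tRNAs with amino acids and include known ATF4 targets, rose with BrefA. Of 15 tested, 9 were higher than in NoStim and 9 higher than in DMSO, and the medians were 0.79 and 0.93. In DMSO the only call against NoStim was Mars, which was lower (-1.04), a call lost without NoStim wells B or C or DMSO wells E, F or H, and with RLE scaling 2 were lower. Mars had 3.47, 24.2 and 36.4 CPM in NoStim, 3.10, 10.6 and 21.2 CPM in DMSO and 52.8, 79.5 and 130.3 CPM in BrefA (2.82 ± 0.33 (SE, adjusted p = 2.32e-12) against DMSO). Cars, Tars, Aars and Eprs rose by 1.38, 1.71, 1.42 and 1.15 against NoStim, and Sars had no call (0.21). Of 26 translation factors tested, 12 were higher than in NoStim and Eef1d lower (-0.71), a call lost, at -0.611 to -0.697, without BrefA wells F or H, BrefA library 2 H or NoStim wells B or C. The higher count was 8 with RLE scaling. In DMSO 7 were higher and 2 lower. Eif5, a partner of eIF2 in start codon selection, went from 232, 289.5 and 368 CPM in NoStim and 259.7, 324 and 394 CPM in DMSO to 807, 945 and 1152 CPM in BrefA. Eif2s2, a subunit of eIF2, and Eif4ebp1, a brake on cap-dependent translation, were higher than in DMSO by 1.23 ± 0.10 and 1.88 ± 0.25.

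The coat and Golgi genes are closest to the known target of brefeldin A. Of 11 genes of the COPI coat and the ARF cycle tested, 8 were higher in BrefA than in NoStim, with a median of 0.65; this count was 6 with RLE scaling and 5 without BrefA library 2 H. In DMSO Arf4 was the only one (1.01). Against DMSO 6 were higher, namely Arf4, Copa, Arfgap3, Copb1, Copb2 and Cope, and without BrefA library 2 H the count was again 6. Arf4, a small GTPase of the ARF family, had a lowest, median and highest level of 35.3, 58.2 and 100.2 CPM in NoStim, 102, 139.8 and 166 CPM in DMSO and 145, 216 and 314 CPM in BrefA. Arfgap3, which switches ARF1 off, had 10.7, 17.9 and 24.3 CPM, 3.10, 17.2 and 28.1 CPM and 32.6, 48 and 59.9 CPM, with every BrefA well above the others (1.46 ± 0.32 (SE, adjusted p = 1.45e-04) against DMSO). The coat subunits Copb1 and Copb2 rose by 0.85 ± 0.23 and 0.78 ± 0.20 against NoStim.

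Of 27 genes of Golgi tethers, SNAREs and cargo receptors, 8 were higher in BrefA than in NoStim and Kdelr1 was lower (-0.68, with no call at -0.618 without BrefA wells E and -0.504 without BrefA wells H), and 3 were lower with RLE scaling; 7 were higher than in DMSO. Kdelr2, a receptor that returns escaped ER proteins from the Golgi, had 103, 152 and 193 CPM in NoStim, 80.5, 149.6 and 182 CPM in DMSO and 275, 395 and 598 CPM in BrefA (1.46 ± 0.16 (SE, adjusted p = 5.39e-14) against DMSO). Yipf5, a membrane protein of ER to Golgi traffic, was higher than in DMSO by 1.63 ± 0.19 and the SNARE Gosr2 by 0.79 ± 0.22. Of 10 COPII genes, which build the vesicles that leave the ER, 4 were higher than in NoStim: Sar1a (1.18), Sec24a (1.08), Sec13 (0.69) and Sec24b (0.56). This count was 2 with RLE scaling, 2 without BrefA library 2 H and 2 without BrefA wells G. In DMSO 1 COPII gene was higher than in NoStim, and with RLE scaling 0 were higher and 1 lower. Sec13 lost its call without NoStim wells A, BrefA wells E or G or BrefA library 2 H (0.59 to 0.623), and Sec24b without NoStim wells B or C, BrefA wells G or H or BrefA library 2 H (0.438 to 0.521).

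**Figure D3:**
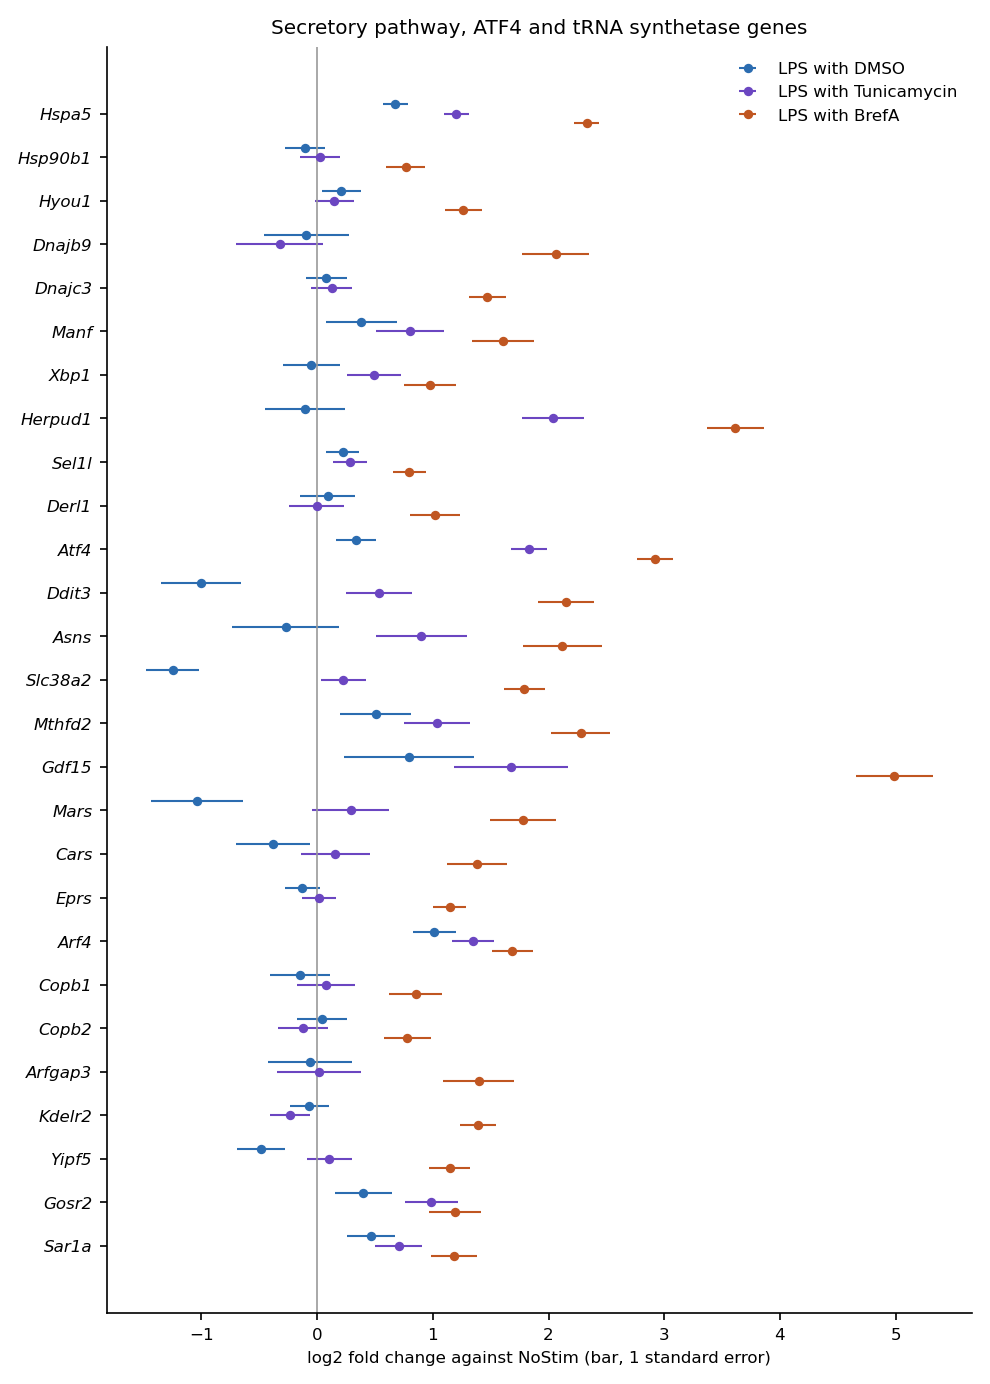
Log2 fold change against NoStim for genes of the ER, ATF4, tRNA synthetases, COPI and Golgi, with LPS and DMSO (blue), Tunicamycin (purple) or BrefA (orange), bars 1 standard error of the edgeR fit (8 libraries a group). Herpud1, Atf4, Hspa5 and Gdf15 are highest with BrefA, and Hsp90b1, Dnajb9, Cars and Kdelr2 lie near or below 0 with DMSO and with Tunicamycin.

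Tunicamycin also loads the ER with misfolded protein, and its wells were compared with BrefA wells at doses that are not given. In Tunicamycin against NoStim 999 genes (20.1%) were higher and 805 (16.2%) lower; in BrefA against Tunicamycin 347 (6.99%) were higher and 493 (9.93%) lower. The medians over all genes were -0.020 and 0.0038. With RLE scaling 825 genes were higher and 1117 lower in Tunicamycin against NoStim, with a median of -0.15. Of 17 ER chaperone genes, 3 were higher with Tunicamycin than in NoStim, and 10 were higher with BrefA than with Tunicamycin, with a median of 0.68. Tunicamycin library 2 F was closer to the plate 1 profile of NoStim (r = 0.31) than to that of its own group (r = -0.0295). Without it the last count was 10. Of the other Tunicamycin libraries, only 1 E was closest to its own group's profile on the other plate. Libraries 1 F, 1 G and 1 H were closest to the group labelled Caspase-1, 2 E and 2 G to Baflo and 2 H to ZVAD. Those groups also received LPS, so the Tunicamycin profile was not well set apart from theirs. Hspa5 differed by 1.13 ± 0.10 (SE, adjusted p = 4.00e-18) and Dnajb9 by 2.39 ± 0.31 (SE, adjusted p = 1.84e-10). Of the ATF4 and CHOP targets 7 were higher with BrefA and 2 lower, Atf3 (-0.91) and Cebpb (-1.45). Without library 2 F the higher count was 9. Interferon-responsive genes were lower with BrefA than with Tunicamycin as well: 37 of 49 antiviral effectors, with a median of -1.03. Iigp1 differed by -3.10 ± 0.26 (SE, adjusted p = 1.25e-17).

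Several of the genes with the lowest differences from NoStim, chosen for being low in BrefA, were low in DMSO wells as well. Cxcr4, the receptor for CXCL12, had a lowest, median and highest level of 450.0, 542 and 619 CPM in NoStim, 17.3, 37.2 and 55.6 CPM in DMSO and 35.2, 53.5 and 82.6 CPM in BrefA (-3.25 ± 0.21 (SE, adjusted p = 6.25e-29) against NoStim, 0.60 ± 0.27 (SE, adjusted p = 0.136) against DMSO). Cx3cr1, the fractalkine receptor, had 102, 155 and 179 CPM, 10.7, 20.4 and 26 CPM and 0, 10.7 and 25.3 CPM in the same order (-3.47 ± 0.31 (SE, adjusted p = 9.38e-20) against NoStim). Both LPS groups lay below every NoStim well for both receptors. Gpr65, an acid-sensing receptor, had -3.21 in BrefA and -3.10 in DMSO against NoStim, and Sesn1, a stress-induced regulator of mTORC1, -4.20 and -3.78. Vgll4, a cofactor of TEAD transcription factors, had 75.4, 111 and 166 CPM in NoStim and 0, 3.89 and 13.2 CPM in BrefA. Of 14 chemoattractant and lipid receptors tested, 7 were lower in BrefA, and Ccrl2 (3.19), Adora2b (1.52) and Ptafr (1.04) were higher. Ptafr lost its call without BrefA wells F (0.919) or NoStim wells A (0.824). Of 18 immediate early factors, 6 were higher and 4 lower, namely Fos (-3.32), Nr4a1 (-2.56), Klf4 (-0.93) and Fosl2 (-0.84). In DMSO 4 of the 14 receptors were higher than in NoStim and 7 lower. For the 18 immediate early factors the DMSO counts were 3 higher and 6 lower.

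Of the 328 genes lowered at least 2-fold in DMSO in the divided comparison above, 205 were called lower in BrefA, 3 were called higher and 28 had a difference above 0. Mylip and Fnip1, fitted with all NoStim wells, are examples of genes lower in DMSO with another value in BrefA. Mylip, the ubiquitin ligase that degrades the LDL receptor, had a lowest, median and highest level of 88, 134 and 159 CPM in NoStim, 32, 51.9 and 74.3 CPM in DMSO and 105, 148 and 208 CPM in BrefA. BrefA wells lay among the NoStim wells (0.28 ± 0.20 (SE, adjusted p = 0.281)) and above all DMSO wells (1.53 ± 0.23 (SE, adjusted p = 1.66e-08)). Fnip1, a partner of folliculin at the lysosome, was lower than NoStim in DMSO (-0.89) and higher in BrefA (0.75), a difference of 1.64 ± 0.22 (SE, adjusted p = 3.17e-10).

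Genes of other pathways moved in both directions. Over all genes tested, 19.8% were higher and 17.5% lower in BrefA than in NoStim, and 19.5% and 16.6% in DMSO. Of 31 lysosome and autophagy genes 12 were lower in BrefA than in NoStim and 12 in DMSO, with medians of -0.33 and -0.34; with RLE scaling these counts were 17 and 23, and with the wells of one letter left out the BrefA count ran from 8 to 15. The protease Ctsd was at -0.75 ± 0.096 against NoStim. Of 15 heat shock genes 8 were higher and Ahsa1 lower (-0.49); the higher count was 6 with RLE scaling, 6 without BrefA library 2 H and 5 without NoStim wells B. Ahsa1 lost its call, at -0.432 to -0.461, without BrefA wells E or H or NoStim wells B or C. In DMSO 6 heat shock genes were higher than in NoStim and 1 lower, and with RLE scaling 3 were higher. Hsp90aa1, the inducible cytosolic HSP90, went from 641, 729 and 973 CPM in NoStim to 874, 1005 and 1225 CPM in DMSO and 1791, 1912 and 2749 CPM in BrefA (0.99 ± 0.12 (SE, adjusted p = 9.97e-12) against DMSO). Of 15 p53 targets and apoptosis regulators 8 were higher and Sesn1 lower (3 were lower with RLE scaling). In DMSO 7 of the 15 were higher and 2 lower. Cdkn1a, the cell cycle inhibitor p21, rose by 2.94 in BrefA and 3.06 in DMSO, and Mdm2, the p53 ubiquitin ligase, was higher in BrefA than in DMSO by 0.81 ± 0.15.

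Of 10 cholesterol efflux and storage genes 5 were lower in BrefA than in NoStim, namely Abcg1 (-1.12), Soat1, Plin2, Lpl and Apoe, and Ch25h was higher (3.20). In DMSO 4 of the 10 were lower and 1 higher, and with RLE scaling 7 were lower. Insig1, which holds back sterol synthesis, was higher in BrefA than in NoStim (1.45). Of 20 glycolysis and hypoxia genes Hilpda (1.85), Ndrg1 (1.68), Hk2 (1.22) and Pfkp (0.83) were higher in BrefA than in NoStim and Tpi1 (-0.71), Pkm (-0.54) and Gapdh (-0.34) lower. Both counts were near the shares over all genes tested, 19.8% higher and 17.5% lower. Without NoStim wells D the higher count was 7 and the lower count 5, and with RLE scaling the lower count was 5. In DMSO 5 were higher and 4 lower, and with RLE scaling 4 and 7. Of 11 NRF2 and iron genes Txnrd1 (1.18) and Prdx1 (0.70) were higher in BrefA than in NoStim and Ftl1, Fth1, G6pdx and Blvrb lower, a lower count of 2 without BrefA wells E and 6 with RLE scaling. The higher count was near the share over all genes. In DMSO 1 was higher and 6 lower. Of 10 cell cycle genes Tyms was higher in BrefA than in NoStim (0.45, a call lost with RLE scaling and at 0.353 to 0.379 without BrefA wells E or G or NoStim wells A or C) and Ccnd1 (-1.41), Stmn1 (-1.09) and Tubb5 (-0.77) lower. The higher count lay below the share over all genes, and in DMSO 1 was higher and 3 lower. Of 79 ribosomal protein genes 19 were lower in BrefA than in NoStim, with a median of -0.18. The lower count was 45 with RLE scaling, 28 without BrefA library 2 H, 11 without BrefA wells E, 7 without BrefA wells F, 3 without NoStim wells B and 9 without NoStim wells C. In DMSO 21 were lower and 1 higher, with a median of -0.21, and with RLE scaling 60 were lower.

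**Figure D4:**
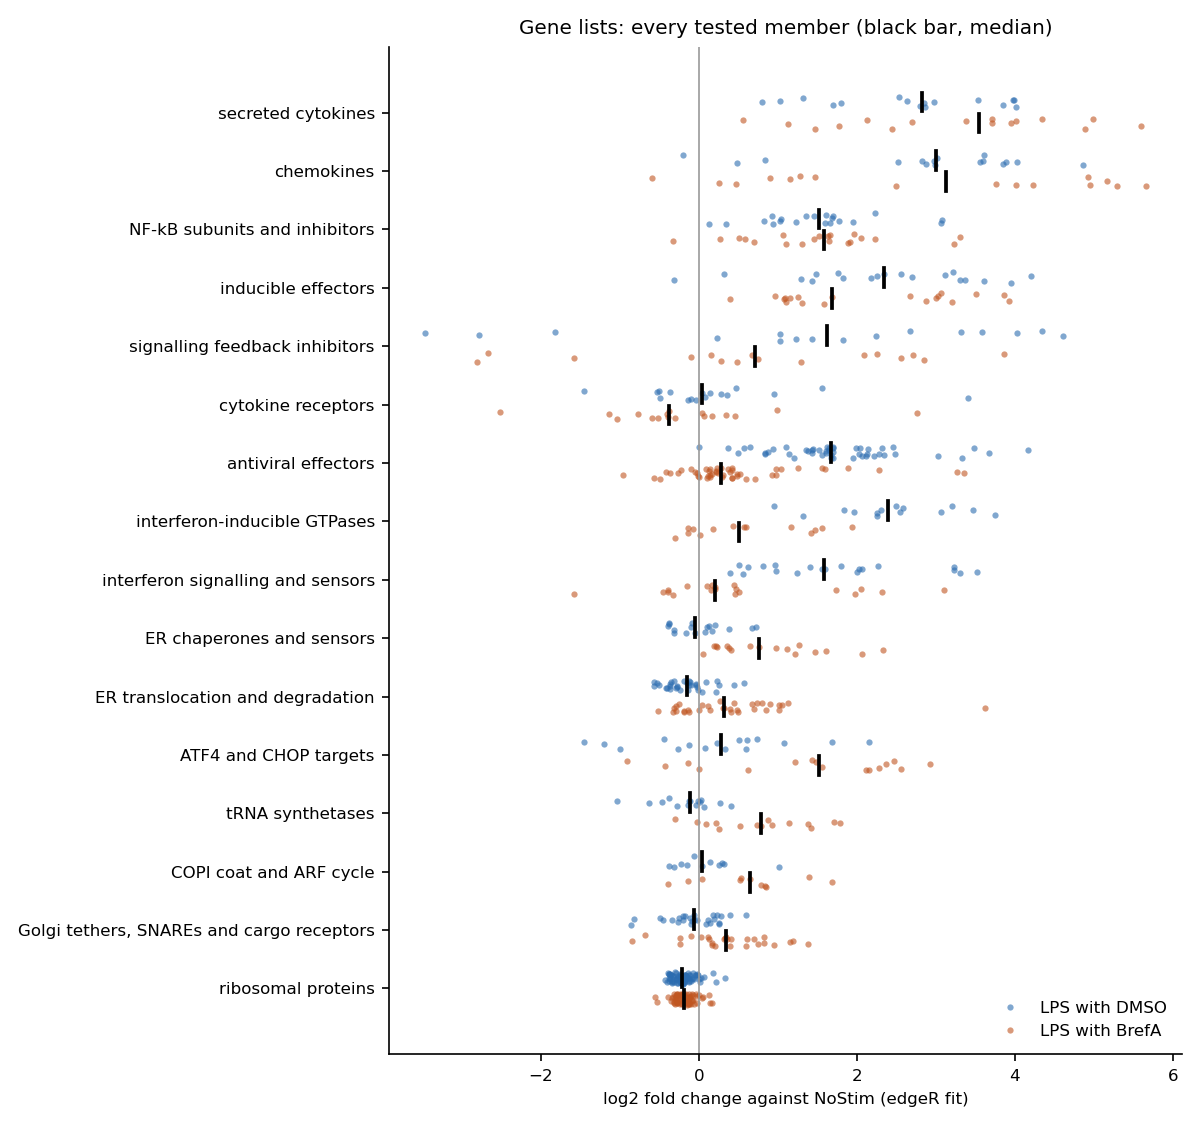
Log2 fold change against NoStim of every tested member of 16 gene lists, LPS with DMSO in blue and LPS with BrefA in orange, black bars the medians. Cytokines have medians of 2.82 with DMSO and 3.55 with BrefA, chemokines 3.0 and 3.13, and NF-kB genes 1.52 and 1.58; antiviral genes lie at 1.67 with DMSO and 0.28 with BrefA, and ER chaperones, ATF4 targets and tRNA synthetases lie higher with BrefA.

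A test of whether BrefA against NoStim differed between plates called 7 of 4963 genes, with 620 at an unadjusted p under 0.05, and called 0 without BrefA library 2 H (428 unadjusted) and 0 without NoStim library 2 D (529 unadjusted; edgeR in each case). Of the genes followed here it called Il12b, Mnda and the NF-kB regulator Nfkbiz, whose differences were smaller on plate 2.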

How the data were processed

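The deposited table gives raw counts, which the authors made with BWA against mm10 per the submitters' processing notes, for 23481 gene symbols in 96 libraries; the version of BWA, the annotation and the handling of molecular identifiers were not given in the sources used here. Libraries were grouped by their labels. Genes were kept with filterByExpr on the groups (4963 genes), libraries scaled with TMM, and all 96 fitted in one model of group and plate with edgeR 4.0.16 (limma 3.58.1, R 4.3.3); the quasi-likelihood F test was two-sided, with Benjamini-Hochberg adjustment over the 4963 genes. SEs were the absolute log2 fold change divided by the square root of F. CPM are counts per 1000000 on TMM-scaled totals. Total counts per library ran from 80196 to 379198 with a median of 257985, which limits genes with few counts.

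The table was read whole, and no column of it was left out. Promoters came from RefSeq windows on GRCm38.p6 and gene positions from GENCODE release 21. Alternatives were RLE and upper quartile scaling, DESeq2 1.42.0, other filters, each plate alone, wells summed over plates, the compared groups alone and single libraries, or the wells of one letter on both plates, left out; recomputed totals, an Rn45s covariate and leaving out NoStim library 2 D were chosen after seeing the data. Scripts were tested on simulated data. Genes named in the text are the 12 highest and 12 lowest in BrefA against NoStim and the 8 highest and 8 lowest against DMSO (at least 30 CPM in the higher group, same sign on both plates), those of the first 4 listed members of each list that were tested, up to 4 more called members with the largest fold, and members named beside a small count after their values were seen. Members and lists were chosen with earlier results of these data known. The list of 15 mitochondrially encoded genes could not be tested and is not used here, and a few genes that the rule names are not reported here.

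The wells of NoStim (A to D) share no letter with those of BrefA (E to H). BrefA and DMSO wells of the same plate and letter had deviations from their group means that correlated at -0.0746 to 0.135, so letters were not taken to pair wells of different groups. Wells of one group and letter on the 2 plates correlated at -0.0957 to 0.462 (mean 0.127), over 0.1 in 26 of 48 pairs, so the 8 libraries of a group may not all be independent, and summing such wells was one of the alternatives.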

Additional observations from a re-analysis of the deposited data

Results flagged for a closer look

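In 30 of 398 groups of 8 libraries tested (7.54%), 1 library stood apart from the other 7 by its gap to the nearest of them. The groups were the levels of 197 genes and each library's total count and Rn45s share in BrefA and NoStim. The limit used marks about 1 in 20 groups of independent normal values. The groups here share libraries and many levels rest on few counts, so 7.54% cannot be set against that rate. NoStim library 2 D held 11 of the marks and BrefA library 2 H held 7. NoStim library 2 D stood apart, set against the nearest other library of its group, for Ccl7 at 103 CPM against 60.4 CPM, Il10ra at 262 CPM against 118 CPM, Il12b at 61.4 CPM against 27.7 CPM and Irg1 at 237 CPM against 145 CPM. In that library the same held for Mmp13 at 193 CPM against 93.6 CPM, Mx1 at 218 CPM against 116 CPM, Oasl1 at 145 CPM against 66.4 CPM and Ptgs2 at 181 CPM against 101 CPM. In that library the same held for Socs1 at 22.3 CPM against 10.6 CPM, Tgtp1 at 30.7 CPM against 21.2 CPM and Tnfrsf1b at 779 CPM against 432 CPM. BrefA library 2 H stood apart, set against the nearest other library of its group, for Ccl3 at 5341 CPM against 3328 CPM, Irf1 at 793 CPM against 553 CPM, Lpar6 at 10.6 CPM against 3.55 CPM and Pfkp at 137 CPM against 95.9 CPM. In that library the same held for Prdx1 at 2181 CPM against 1428 CPM, Socs3 at 356 CPM against 221 CPM and Txnrd1 at 757 CPM against 591 CPM. BrefA library 1 E stood apart, set against the nearest other library of its group, for Cp at 76.02 CPM against 36.7 CPM, Gpr65 at 54.9 CPM against 31.98 CPM and Irak1 at 249 CPM against 202 CPM. NoStim library 2 C stood apart, set against the nearest other library of its group, for Fnip1 at 155 CPM against 99.7 CPM, Irak2 at 169 CPM against 120.0 CPM and Tnfsf15 at 24.7 CPM against 8.37 CPM. BrefA library 1 F stood apart, set against the nearest other library of its group, for Hyou1 at 598 CPM against 398 CPM and Ifi27l2a at 208 CPM against 145 CPM. BrefA library 1 H stood apart, set against the nearest other library of its group, for Gbp3 at 195 CPM against 121 CPM. BrefA library 2 G stood apart, set against the nearest other library of its group, for Il10ra at 92.4 CPM against 56.4 CPM. NoStim library 1 B stood apart, set against the nearest other library of its group, for Cish at 7.16 CPM against 3.02 CPM. NoStim library 2 B stood apart, set against the nearest other library of its group, for Tyms at 147 CPM against 100.5 CPM.

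The difference between BrefA and NoStim also differed between the plates, as plate 2 minus plate 1 on the log2 scale, for Il12b (-1.91, adjusted p = 0.0373), Mnda (-1.48, adjusted p = 0.0238) and Nfkbiz (-1.56, adjusted p = 0.0373), by edgeR's interaction term. Without BrefA library 2 H, or without NoStim library 2 D, no gene was called by that term.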

How the results depend on the processing

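The number of genes called in BrefA against NoStim, 1851, was 2010 with RLE scaling, 2001 with upper quartile scaling, 2039 with DESeq2, 2043 with no filter on low counts, 2128 with a filter at 20 CPM, 1928 with wells summed and 1452 with the compared groups alone. RLE scaling lowered the median of all genes from -0.0098 to -0.126 and left 41.3% of the calls higher in place of 53%. Plate 1 alone gave 518 calls in BrefA against DMSO, in place of 860. Plate 2 alone gave 1011 in BrefA against NoStim, 882 in DMSO against NoStim, 487 in BrefA against DMSO, 934 in Tunicamycin against NoStim and 373 in BrefA against Tunicamycin; fewer libraries enter these fits. The compared groups alone gave 548 in BrefA against Tunicamycin, in place of 840. With the wells of one letter left out on both plates, the calls ran from 1636 to 1955 in BrefA against NoStim, 738 to 797 in BrefA against DMSO, 669 to 830 in BrefA against Tunicamycin, 1582 to 1924 in DMSO against NoStim and 1640 to 1806 in Tunicamycin against NoStim. Of the LPS-responsive genes 63.2% were higher in BrefA, in place of 53.9%, when NoStim wells C and D chose the genes and wells A and B measured them. The plate interaction gave 0 calls without BrefA library 2 H and 0 without NoStim library 2 D, the latter chosen after seeing the data. BrefA against Tunicamycin changed sign for Prdx1 on plate 1 alone (-0.15) and for Myd88 on plate 2 alone (0.0847). The cause of these changes was not tested.

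No paired analysis was possible because NoStim wells share no letter with BrefA wells. With the well letter as a term beside plate, and NoStim left out, BrefA against DMSO had 889 calls and BrefA against Tunicamycin 904. Total counts of 80196 to 379198 per library limit what can be called among genes with few counts.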

Other observations

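Some regulators not named above also differed between the LPS groups, and these genes were chosen after their values were seen. Among the 18 immediate early factors described above, Maff had the highest difference from NoStim and Klf9 the highest difference between BrefA and DMSO. Maff, a small MAF transcription factor, was higher than in NoStim by 3.63 ± 0.43 with BrefA and 2.44 ± 0.50 with DMSO, and BrefA was higher than DMSO by 1.20 ± 0.32 (SE, adjusted p = 0.00266). Klf9, a zinc finger repressor, was lower in DMSO than in NoStim (-1.15) and higher in BrefA (0.89), with 2.04 ± 0.38 (SE, adjusted p = 6.87e-06) between BrefA and DMSO. Its DMSO call was lost without NoStim wells B (-1.08), NoStim library 2 D (-0.997) or DMSO wells F (-1.1), and its BrefA call without BrefA wells E (0.812) or NoStim wells A (0.764). Arid5a, a protein that stabilises inflammatory mRNAs such as Il6, was higher than NoStim in DMSO (2.03) and had no call in BrefA (-0.72), a difference between them of -2.75 ± 0.40 (SE, adjusted p = 6.98e-09). Spsb1, a substrate adaptor of a ubiquitin ligase, had 2.23 in DMSO, -0.51 in BrefA and -2.74 ± 0.37 (SE, adjusted p = 5.22e-10) between them. The TNF receptor gene Tnfrsf1a was at -0.52 ± 0.22 in BrefA against NoStim, a value called at -0.621 without BrefA library 2 H and at -0.636 with RLE scaling, and at -0.99 ± 0.21 (SE, adjusted p = 1.42e-04) against DMSO.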
